A study of Cricetulus griseus with 10 samples.

Results

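The genes described here are those of the amino acid response together with the enzymes of serine and proline synthesis. They were followed in CHO-K1 cells adapted to suspension growth. A list of 39 genes was looked up in the deposited expression table by symbol or by Chinese hamster NCBI Gene number. Rows were found for 37 of them (18 by symbol and 19 by number) out of 25156 features, and all 37 had a mean of at least 10 normalised reads over the 10 libraries. Cebpb and Cebpg, which encode partners of the transcription factor ATF4, had no row under their symbols. The RefSeq gene list used gave no gene number for either, so a row under an unmatched number could not be found. Neither was analysed here.

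The amino acid response starts when uncharged transfer RNA activates the kinase GCN2, which phosphorylates the translation factor eIF2. General protein synthesis then slows while translation of ATF4 goes up, and ATF4 raises transcription of genes for amino acid uptake, amino acid synthesis and tRNA charging. Stress in the endoplasmic reticulum feeds into the same factor through the kinase PERK. Because ATF4 is controlled largely at translation, its messenger RNA is a poor guide to its protein. CHO cells are known to depend on proline in the medium, which makes the proline enzymes of particular interest in this line.

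CHO-K1 is an established line derived from Chinese hamster ovary, labelled wild type in all samples, and it was adapted in SFM4CHO, a serum-free medium for CHO cells. Total RNA was sequenced at passages 0, 2, 4, 6 and 10 (P0 to P10), with 2 libraries per passage and 10 in all. How the cells of P0 were cultured is not given in the labels. They give no origin for the duplicates either, so p-values reflect only the spread between these libraries, which may be technical.

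Reads assigned to features ranged from 8394219 to 16599495 per library. Duplicates correlated at 0.988 to 0.992 across tested features at P0, P2 and P4, but at 0.956 at P6 and 0.930 at P10. The single feature Dym took up 8.53 to 13.5% of normalised reads in 7 libraries and 4.32%, 1.15% and 1.41% in P6 replicate 1, P6 replicate 2 and P10 replicate 1. Of the mesenchymal markers, Vim was between 12373 and 23048 normalised reads and Cdh2 between 9.32 and 48.1. Of the epithelial ones, Cdh1 was at 164 to 337 in the 7 libraries with the high Dym share and at 90.0, 50.6 and 81.8 in P6 replicate 1, P6 replicate 2 and P10 replicate 1, while Epcam ranged from 2.87 to 16.4, Krt8 from 0 to 4.95 and Krt18 from 0 to 1.12. The summed level of the 7 leukocyte markers with a row (of 8 listed) was 49.7 to 61.8 at P0, 102 to 107 at P2, 177 to 207 at P4, 149 to 207 at P6 and 105 to 166 at P10, with Cd14 and Tyrobp at no more than 1.04 in any library. Itgax went from 0 and 1.44 at P0 to between 18.6 and 78.1 in the later libraries, and Cd68 from 32.2 and 37.4 to between 40.6 and 111. Of the 4 leukocyte markers tested, 1 rose at P2, 2 at P4, 2 at P6 and 1 at P10 by limma. Over all features, 4.15%, 9.24%, 21.0% and 17.0% were called in either direction at these passages. At P4, 1 of the 4 had a negative log2 difference from P0. The part of these shifts in the results was not tested. In such bulk libraries, fewer cells with a transcript and less of it per cell cannot be told apart.

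Most of these genes sat below their P0 level at P2, and fewer did so at P4. Relative to the P0 mean, 29 and 28 of the 37 genes were lower in the P2 libraries, 20 and 21 in the P4 libraries, 24 and 30 in the P6 libraries, and 27 and 19 in the P10 libraries. Among all 13521 tested features, the share below the P0 mean lay between 45.8% and 54.3% in each of the 8 later libraries. The median log2 difference from P0 over the 37 genes was -0.37 at P2, -0.07 at P4, -0.27 at P6 and -0.23 at P10, beside 0.01, 0.03, -0.07 and 0.00 over all tested features.

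**Figure D1:**
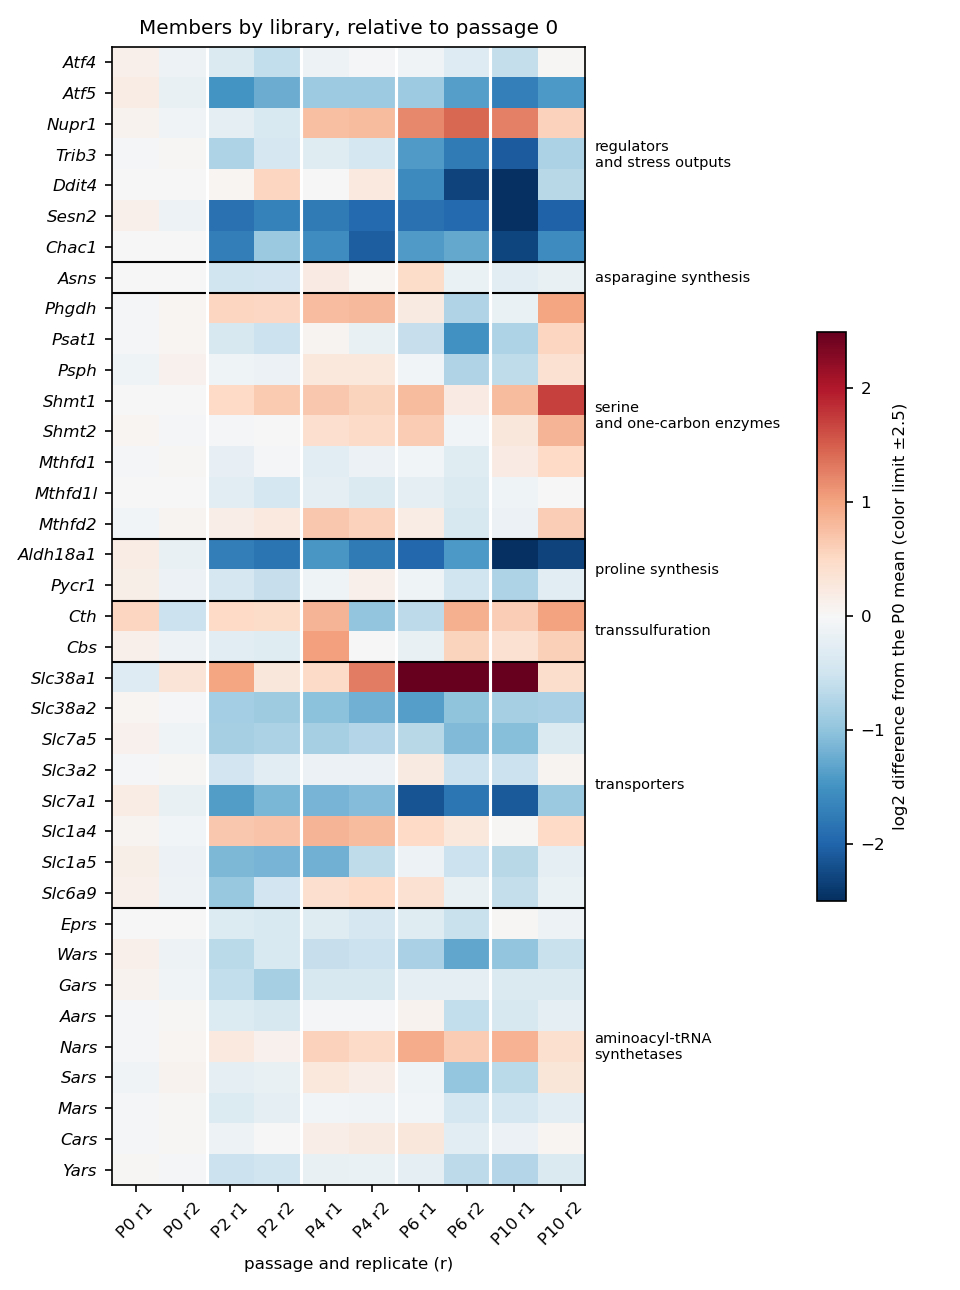
Each cell shows 1 gene (rows, grouped by role) in 1 library (columns), as the difference between its log2(normalised reads + 1) and the mean of the P0 libraries; blue is lower and red higher, with the color limited at 2.5 in either direction. Sesn2 and Aldh18a1 are blue in all 8 later libraries, and Slc38a1 is red in P6 replicates 1 and 2 and P10 replicate 1.

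In the fit across all tested features (limma, Benjamini-Hochberg adjusted p under 0.05), 5 of the 37 genes fell and none rose at P2, against 4.15% of all features called in either direction (2.07% lower and 2.08% higher). By unadjusted p under 0.05, 1 gene was higher and 14 were lower at P2. There, edgeR called none higher and 5 lower, and DESeq2 called 1 higher and 8 lower. At P4, 4 fell and 1 rose (background 9.24%, with 5.52% lower and 3.72% higher), at P6, 8 fell and 3 rose (background 21.0%, with 10.5% in each direction), and at P10, 8 fell and 2 rose (background 17.0%, with 8.25% lower and 8.77% higher). The members' own shares were 13.5%, 13.5%, 29.7% and 27.0% in the same order. Values of the 2 groups did not overlap for 32, 31, 23 and 26 of the 37 genes at P2, P4, P6 and P10, beside 67.1%, 72.4%, 67.7% and 54.3% of all features. All 4 comparisons share the P0 libraries.

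These counts depend on single libraries. Without either P0 library, fewer of the 37 genes passed in each comparison with P0, and fewer of all features did too. The same held at P2 without either P2 library, and at P4 without either P4 library. In each of these fits the passage concerned is left without a duplicate. At P2 and P4 the count with 1 library left out was highest without P10 replicate 1 and, equally, without P10 replicate 2. At P6 and P10 it was highest without P10 replicate 2. Both P6 replicate 2 and P10 replicate 1, the 2 libraries with the lowest Dym share, were also left out together. More of the 37 genes then passed in each comparison with P0, and more of all features did too. Most of the genes that passed at P2 were lower, while at P10 nearly as many were higher as lower. These 2 libraries were chosen with earlier results of these data known, and their distance to their duplicates is mutual. In that fit P6 and P10 are 1 library each, assumed to vary like the duplicates of P0, P2 and P4, so only its P2 and P4 comparisons have duplicates on both sides. When the spread came from the P0 and P10 libraries alone, none of the 37 genes passed at P10, where 49 of all features did. Counting the comparison of late with early passages as well, there were 33 calls of a gene in a comparison, and 2 of them, Sesn2 and Aldh18a1 at P10, kept an adjusted p under 0.05 whichever of the 10 libraries was omitted.

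**Figure D2:**
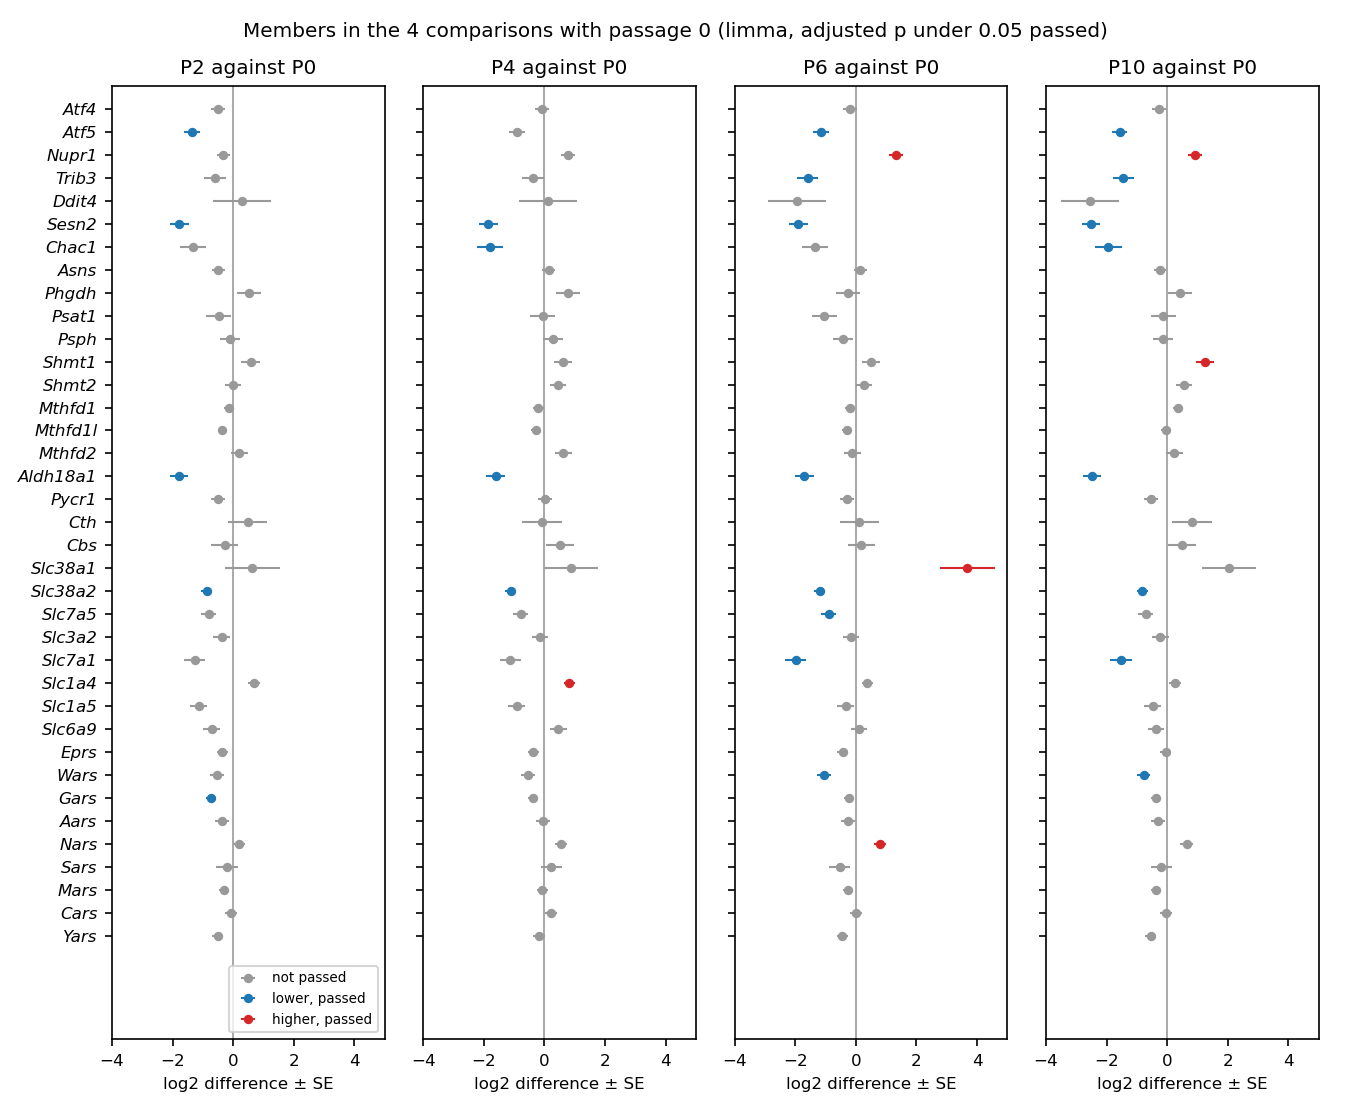
Points give the log2 difference from P0 of each gene, with its standard error, in the comparisons of P2, P4, P6 and P10 with P0; blue and red mark genes that passed as lower or higher, grey those that did not. Sesn2, Aldh18a1 and Slc38a2 passed as lower in all 4 panels, and Slc38a1 has the widest rise, 3.68 at P6.

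Among the regulators, the transcript of Atf4 itself did not pass in any comparison of the limma fit with all libraries. It stood at 1641 and 1379.7 normalised reads at P0, against 1168 and 978 at P2, 1372 and 1478 at P4, then 1424 and 1205 at P6 and finally 999.9 and 1544 at P10. The P2 libraries lay below both P0 libraries, while the P10 duplicates lay on either side of P0 replicate 2. The log2 differences from P0 were -0.49 (SE 0.23, adjusted p = 0.300), -0.08, -0.20 and -0.28 (SE 0.23, adjusted p = 0.451) at P2, P4, P6 and P10. At P2, Atf4 passed as lower with both P6 replicate 2 and P10 replicate 1 left out (limma adjusted p = 0.00773).

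Sesn2 encodes a sestrin that binds leucine and restrains the growth kinase mTORC1. Its values were 438 and 365 at P0, against 109 and 124 at P2, 117 and 104 at P4, then 109 and 103 at P6 and finally 48.9 and 97.6 at P10. Every later library lay below both P0 libraries, and the P0 mean was 3.44 times that of P2 and 5.48 times that of P10. The log2 differences were -1.77 (SE 0.31, adjusted p = 0.0190) at P2, -1.85 (adjusted p = 0.00929) at P4, -1.91 (adjusted p = 0.00566) at P6 and -2.51 (adjusted p = 0.00206) at P10. With 1 library left out, the highest adjusted p was 0.196 at P2, 0.105 at P4, 0.0646 at P6 (without P0 replicate 1) and 0.0350 at P10. The P2 call was lost on omission of any single P0, P2 or P4 library, and the P4 call without any 1 library of P0 or P4.

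Atf5 encodes a stress-induced factor related to ATF4 that acts in the mitochondrial stress response. It had 246 and 189.7 normalised reads at P0, against 76.0 and 90.5 at P2, 114 and 114 at P4, then 115 and 82.0 at P6 and finally 65.0 and 79.6 at P10. No later library reached the lower P0 value. Atf5 fell at P2 (log2 difference -1.37, SE 0.26, adjusted p = 0.0252), at P6 (-1.14, adjusted p = 0.0188) and at P10 (-1.57, adjusted p = 0.00644), whereas P4 gave -0.92 (adjusted p = 0.0616), called by DESeq2 (adjusted p = 0.0212). With 1 library left out, the highest adjusted p was 0.237 at P2 (lost on omission of any single P0, P2 or P4 library), 0.147 at P6 (lost without either P0 library or P6 replicate 2) and 0.0753 at P10 (lost without P0 replicate 1).

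Chac1 encodes an enzyme that degrades glutathione and is a sensitive readout of the response. It was sparse, with 42 and 26 reads in the P0 libraries and 7 to 17 in each later library. In normalised reads these were 36.6 and 37.4 at P0, against 10.4 and 19.0 at P2, 11.9 and 8.16 at P4, then 13.3 and 14.6 at P6 and finally 6.75 and 11.7 at P10. All 8 later values lay below P0. Chac1 fell at P4 (log2 difference -1.81, SE 0.43, adjusted p = 0.0361) and P10 (-1.94, adjusted p = 0.0191), with -1.33 (adjusted p = 0.136) at P2 and -1.35 (adjusted p = 0.0577) at P6. At P6, edgeR called it lower (adjusted p = 0.0475). The highest adjusted p with 1 library left out was 0.259 at P4 (lost on omission of any single P0, P2 or P4 library, and without a filter on low values) and 0.124 at P10 (lost without either P0 library or P10 replicate 1).

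Trib3 and Nupr1 lay furthest from P0 at P6 and P10, in opposite directions, while at P2 both lay below P0. Trib3 encodes a pseudokinase that feeds back on ATF4 and inhibits AKT, and it had 1030.5 and 1061 normalised reads at P0, against 613 and 778 at P2, 842 and 773 at P4, then 391 and 306 at P6 and finally 246 and 601 at P10. All later libraries lay below P0, and P10 replicate 2 was close to the P2 libraries. Trib3 fell at P6 (log2 difference -1.59, SE 0.36, adjusted p = 0.0183) and P10 (-1.44, adjusted p = 0.0281), with -0.60 (adjusted p = 0.440) at P2 and -0.37 (adjusted p = 0.596) at P4. Left-out libraries took the adjusted p as high as 0.109 at P6 (lost without either P0 library or P6 replicate 2) and 0.147 at P10 (lost on omission of any single P0, P2 or P4 library). For P10 replicate 2 alone the log2 difference from P0 was -0.80.

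Nupr1, a small stress-induced chromatin protein, had 417 and 369 normalised reads at P0, against 329 and 301 at P2, 665 and 678 at P4, then 905 and 1068 at P6 and finally 942 and 589 at P10. The P2 libraries lay below P0 and all libraries from P4 on lay above it. Nupr1 rose at P6 (log2 difference 1.32, SE 0.23, adjusted p = 0.00704) and P10 (0.92, adjusted p = 0.0276), while P4 gave 0.77 (adjusted p = 0.0706, by DESeq2 0.0459) and P2 -0.32 (adjusted p = 0.536). The P6 call was lost without either P0 library (highest adjusted p = 0.0593). The P10 call was lost on omission of any single P0, P2 or P4 library, and of P10 replicate 1 (highest adjusted p = 0.153), and also when libraries were scaled to a common total without Dym.

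Ddit4 encodes REDD1, another inhibitor of mTORC1, and it gave no call by limma with all libraries. It had 37.5 and 37.4 normalised reads at P0, against 38.5 and 54.8 at P2, 37.6 and 44.3 at P4, then 11.7 and 6.74 at P6 and finally 0.844 and 22.6 at P10, where replicate 1 held a single read. All 4 libraries of P6 and P10 lay below P0, with log2 differences of -1.95 (SE 0.95, adjusted p = 0.165) at P6 and -2.54 (SE 0.95, unadjusted p = 0.0261) at P10, neither of which passed. The P10 difference was -0.70 (adjusted p = 0.270) without P10 replicate 1 and -4.38 (adjusted p = 0.000368) without P10 replicate 2, each from a single P10 library.

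**Figure D3:**
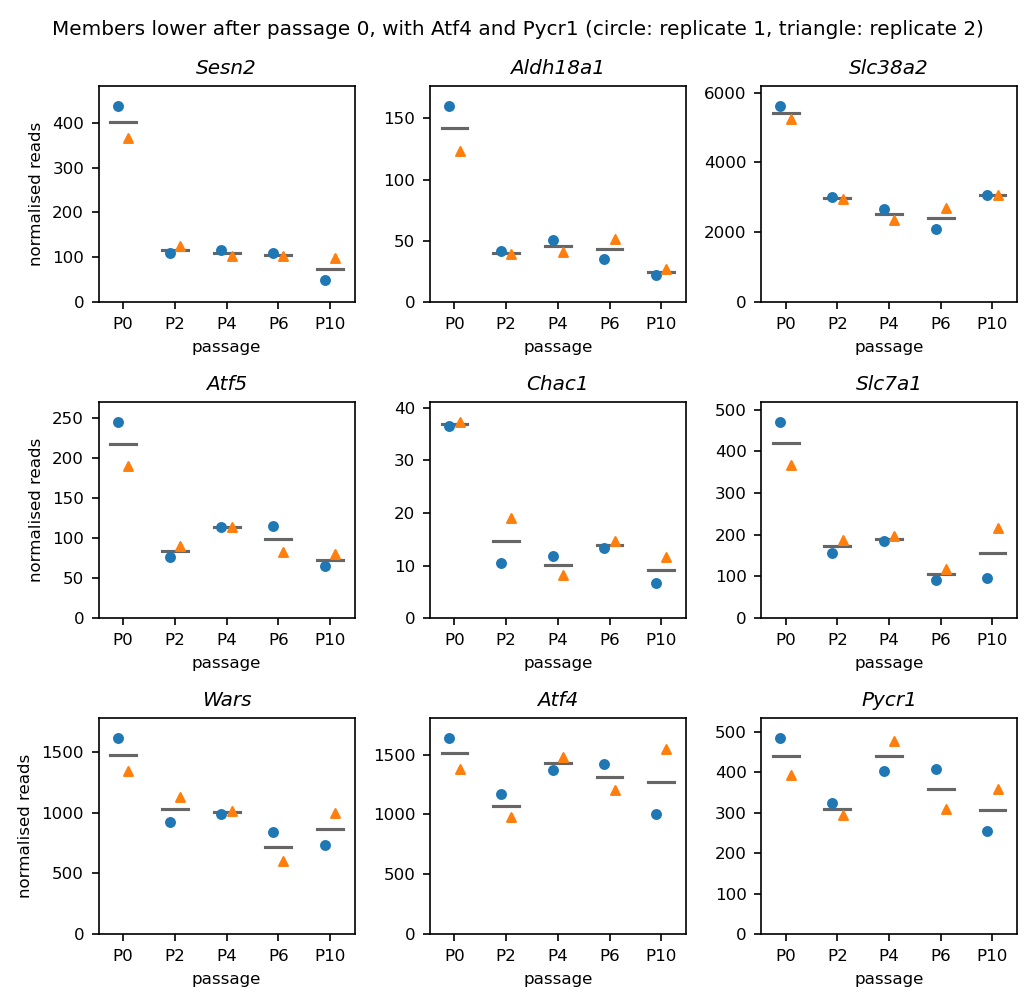
Normalised reads of 9 genes are plotted by passage on axes that start at 0, with replicate 1 as circles, replicate 2 as triangles and the mean as a bar. Sesn2, Aldh18a1, Slc38a2, Atf5, Chac1 and Slc7a1 have every later library below both P0 libraries, whereas Atf4 and Pycr1 have later libraries within the P0 range.

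In a list of 15 tested genes of eIF2 kinases, eIF2B and feedback, 1 fell at P2, 5 at P4, 4 at P6 and 3 at P10, and 2 rose at P6 (median log2 difference -0.10 at P10). Over all features, 4.15%, 9.24%, 21.0% and 17.0% were called at these passages. Ppp1r15b, a constitutive partner of the phosphatase that dephosphorylates eIF2, had 605 and 438 normalised reads at P0 and 148 to 268 in all later libraries, with a log2 difference of -1.45 (adjusted p = 0.00502) at P10. Its stress-induced counterpart Ppp1r15a had 260.5 and 269 at P0 and 44.9 to 118 later (-1.76 at P10, adjusted p = 0.0156), and did not pass at P2 (adjusted p = 0.0887).

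Other genes linked to ATF4 did not move in 1 direction. Of 18 tested, 4 fell at P2, 5 at P4, 7 at P6 and 6 at P10, and 2 rose at each of P4, P6 and P10 (all features 4.15%, 9.24%, 21.0% and 17.0%), with a median of -0.57 at P10. Stc2, a secreted glycoprotein, had 162 and 154 normalised reads at P0 and 6.74 to 28.1 in later libraries (log2 difference -4.01 at P10, adjusted p = 0.00153). Slc7a11, the cystine transporter, had 422 and 503 at P0 and 739 to 2169 later, and rose at P10 by 1.96 on the log2 scale (adjusted p = 0.00153). In the list of 19 chaperones and other genes of the unfolded protein response, 3 fell and 2 rose at P10 (all features 17.0%), with a median of 0.17. Its sensor Ern1 had 495 and 466 normalised reads at P0 and 112 to 236 later (-1.83 at P10), and the chaperone Dnajb11 had 878 and 927 at P0 and 1482 to 2201 later (1.16 at P10).

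Asns, which makes asparagine from aspartate and glutamine and is a classical ATF4 target, gave no call with all libraries. It had 795 and 785 normalised reads at P0, against 562 and 567 at P2, 914 and 822 at P4, then 1084 and 707 at P6 and finally 649.7 and 698 at P10. The duplicates at P2 agreed closely and lay below P0, those at P4 lay above it, and those at P6 lay on either side. By limma none of the comparisons passed, with log2 differences of -0.48 (SE 0.21, adjusted p = 0.257), 0.13, 0.15 and -0.23 (adjusted p = 0.491) at P2, P4, P6 and P10. Of these 4, only P2 had an unadjusted p under 0.05, and neither edgeR nor DESeq2 called any. With both P6 replicate 2 and P10 replicate 1 left out, Asns passed as lower at P2 (limma adjusted p = 0.00276), and for P6 replicate 1 alone the difference was 0.46.

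Of the proline enzymes, Aldh18a1 encodes the enzyme that turns glutamate into the semialdehyde from which proline is made, and it fell in all 4 comparisons. Its values were 160.3 and 124 normalised reads at P0, against 41.7 and 39.1 at P2, 50.5 and 40.8 at P4, then 35.2 and 51.7 at P6 and finally 21.9 and 27.3 at P10. Every later library was below the lower P0 value, and both P10 libraries lay below all others. The mean at P0 was 142 ± 25.9 (SD, n = 2), which was 3.51 times that at P2 and 5.76 times that at P10. The log2 differences were -1.78 (SE 0.30, adjusted p = 0.0166) at P2, -1.61 (adjusted p = 0.0144) at P4, -1.70 (adjusted p = 0.00783) at P6 and -2.48 (adjusted p = 0.00201) at P10. With 1 library left out, the highest adjusted p was 0.191 at P2 (lost without any 1 library of P0 or P2), 0.149 at P4 (lost without any 1 of P0 or P4), 0.0835 at P6 (lost without P0 replicate 1) and 0.0350 at P10.

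Pycr1, the mitochondrial enzyme of the last step to proline, had 485 and 392 normalised reads at P0, against 324 and 294 at P2, 403 and 477 at P4, then 407 and 308 at P6 and finally 256 and 358 at P10. Its P4 libraries lay within the P0 range, and those of P2 and P10 below it. It did not pass with all libraries, with log2 differences of -0.50 (SE 0.24, adjusted p = 0.308) at P2, 0.01 at P4, -0.30 at P6 and -0.53 (adjusted p = 0.159) at P10. With both P6 replicate 2 and P10 replicate 1 left out it passed as lower at P2 (limma adjusted p = 0.0159). The difference between the 2 enzymes was not tested. Of 15 tested genes of proline, ornithine and glutamate metabolism outside the 39, 2 rose and 2 fell at P10 (all features 17.0%). Odc1, the first enzyme of polyamine synthesis from ornithine, had 758 and 756 normalised reads at P0 and 1984 to 4170.5 later (2.19 at P10, adjusted p = 0.00166), while Asl, of arginine synthesis, had 118 and 138 at P0 and 39.3 to 81.6 later (-1.36 at P10, adjusted p = 0.0122).

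The enzymes that make serine from glycolysis differed widely between the duplicates of P6 and of P10. Phgdh, the first and committed enzyme, had 2262 and 2430.3 normalised reads at P0, against 3401 and 3367 at P2, 3993 and 4091 at P4, then 2730.3 and 1383 at P6 and finally 2083 and 4677 at P10. Both P2 and both P4 libraries lay above P0, whereas at P10 1 duplicate was below P0 and the other was the highest of all 10 libraries. Psat1, the transaminase of the next step, had 1142 and 1216 at P0, against 889 and 812 at P2, 1244 and 1034 at P4, then 792 and 413 at P6 and finally 689 and 1703 at P10. Psph, the phosphatase of the final step, had 611 and 710.0 at P0, against 615 and 598 at P2, 795 and 794 at P4, then 628 and 391 at P6 and finally 424 and 862 at P10. All 3 had their lowest value in P6 replicate 2 and their highest in P10 replicate 2, and the P10 duplicates differed by 1.17, 1.31 and 1.02 on the log2 scale.

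None of these 3 enzymes passed by limma with all libraries. At P4 the log2 difference was 0.79 (SE 0.39, adjusted p = 0.264) for Phgdh, -0.06 for Psat1 and 0.27 for Psph. At P6 Psat1 had the lowest of the 3, -1.04 (SE 0.41, adjusted p = 0.103). With both P6 replicate 2 and P10 replicate 1 left out, Phgdh passed as higher at P2 (0.53, adjusted p = 0.000989) and P4 (adjusted p = 4.72e-05), while Psat1 passed as lower at P2 (-0.47, adjusted p = 0.00683). For P10 replicate 2 alone the difference from P0 was 0.996 for Phgdh and 0.53 for Psat1, and for P6 replicate 1 alone it was -0.57 for Psat1. The P10 value of Psat1 in the fit with all libraries was -0.12, so its sign there rests on P10 replicate 1.

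The one-carbon enzymes downstream of serine were less uniform. Shmt1, the cytosolic enzyme that splits serine into glycine and a one-carbon unit, had 327 and 326 normalised reads at P0, against 464 and 512 at P2, 518 and 478 at P4, then 564 and 375 at P6 and finally 563 and 1063 at P10. All 8 later libraries lay above P0. It rose at P10 (log2 difference 1.24, SE 0.30, adjusted p = 0.0250), a call lost on omission of any single P0, P2 or P4 library (highest adjusted p = 0.144). The differences at P2, P4 and P6 were 0.58, 0.61 and 0.49 and did not pass by limma with all libraries.

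Its mitochondrial counterpart Shmt2 ranged from 1476 to 2806 normalised reads and Mthfd2, which oxidises the one-carbon unit in mitochondria, from 1471 to 3107. Both had their lowest value in P6 replicate 2, and neither passed in a comparison by limma with all libraries. Mthfd1, the cytosolic trifunctional enzyme, ranged from 1421 to 2495 and Mthfd1l, which releases formate from mitochondria, from 1302 to 1769, also without a call in that fit. Of the 8 serine and one-carbon enzymes, 1 passed as higher at P10 by limma with all libraries (12.5%, all features 17.0%). None passed at P2, P4 or P6, where 4.15%, 9.24% and 21.0% of all features did. Neither edgeR nor DESeq2 called any of the 8 at these 3 passages, and by unadjusted p under 0.05, 1 was lower at P2, 1 higher at P4 and 1 lower at P6. Some of the 8 passed by limma at P2 and at P4, in both directions, when P6 replicate 2 and P10 replicate 1 were both left out. In P10 replicate 2 all 8 lay above their P0 mean, and in P6 replicate 2, 7 of 8 lay below it.

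**Figure D4:**
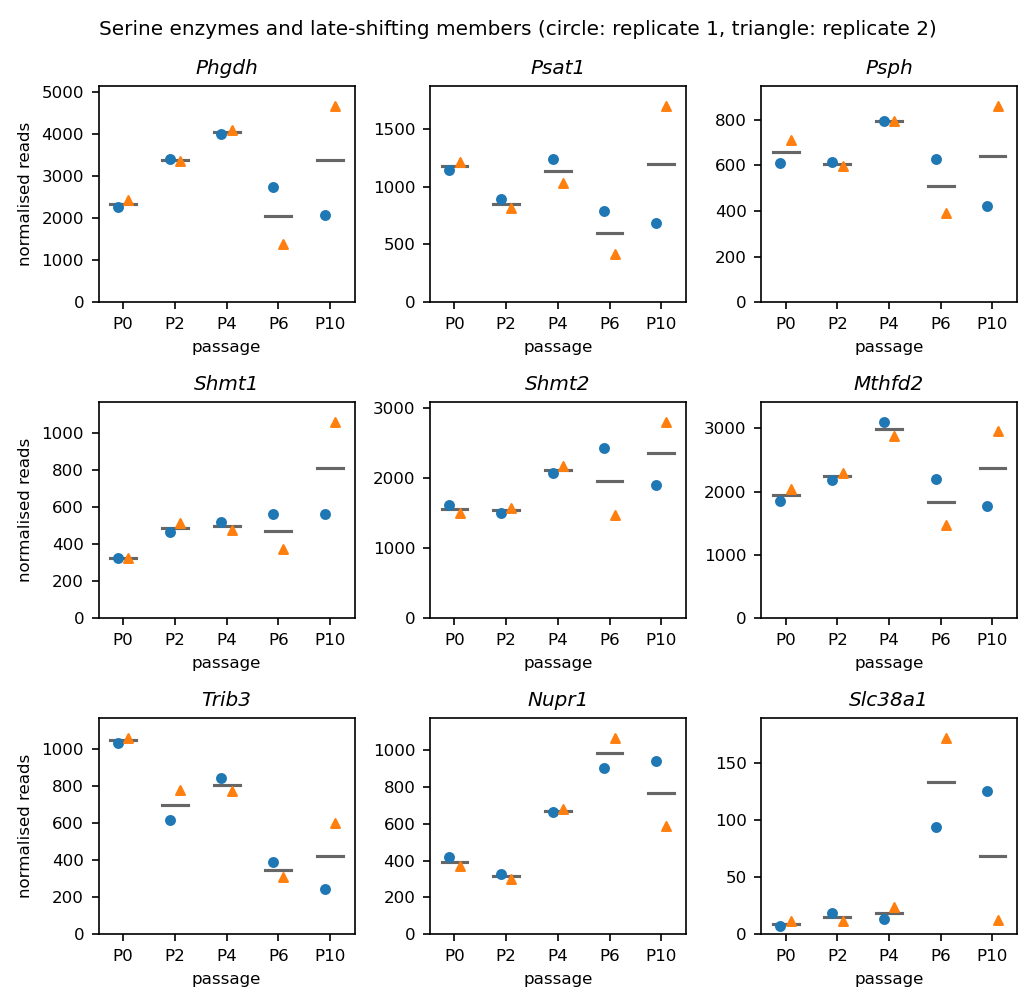
Normalised reads of 6 serine and one-carbon enzymes and of Trib3, Nupr1 and Slc38a1 are plotted by passage on axes that start at 0, with replicate 1 as circles, replicate 2 as triangles and the mean as a bar. The P10 duplicates lie far apart, with Phgdh at 2083 and 4677 and Slc38a1 at 125 and 12.5.

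Among 17 other tested enzymes of serine, glycine and folate metabolism, 3 rose and 2 fell at P10 (all features 17.0%). Mat2a, which makes S-adenosylmethionine from methionine, had 1375 and 1127 normalised reads at P0 and 578 to 849 in all later libraries (log2 difference -0.89 at P10, adjusted p = 0.0164).

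The transsulfuration genes, which route homocysteine to cysteine, gave no call. Cth, the second enzyme of the route, had 217 and 102 normalised reads at P0, against 209 and 206 at P2, 268 and 74.6 at P4, then 94.7 and 275 at P6 and finally 229.5 and 299.7 at P10. Its duplicates differed by 1.83 on the log2 scale at P4 and by 1.53 at P6, with replicate 1 the higher at P4 and replicate 2 the higher at P6. The largest difference from P0 was 0.81 (SE 0.65, adjusted p = 0.437) at P10. Cbs, the first enzyme, was sparse, with 8 to 27 reads per library and 10.1 to 26.7 normalised reads. By unadjusted p under 0.05 neither gene was called in any of the 4 comparisons, nor by edgeR or DESeq2.

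Among the transporters, Slc38a2 fell in all 4 comparisons with P0. It encodes SNAT2, a sodium-coupled carrier of small neutral amino acids that is induced by amino acid shortage. Its values were 5629 and 5233 normalised reads at P0, against 2999 and 2950.3 at P2, 2663 and 2364 at P4, then 2086 and 2706 at P6 and finally 3059 and 3083 at P10. All 8 later libraries lay between 2086 and 3083, below both P0 libraries. The log2 differences were -0.87 (SE 0.18, adjusted p = 0.0354) at P2, -1.11 (adjusted p = 0.00832) at P4, -1.19 (adjusted p = 0.00417) at P6 and -0.82 (adjusted p = 0.0173) at P10. The highest adjusted p with 1 library left out was 0.266 at P2 (lost on omission of any single P0, P2 or P4 library, and without a filter on low values), 0.114 at P4 (without any 1 of P0 or P4), 0.0543 at P6 (without P0 replicate 1) and 0.138 at P10 (without either P0 library).

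Slc38a1, its paralog, encodes SNAT1. It had 6.97 and 11.5 normalised reads at P0, against 18.7 and 11.2 at P2, 12.9 and 23.3 at P4, then 93.9 and 172 at P6 and finally 125 and 12.5 at P10. The 3 high libraries, both of P6 and replicate 1 of P10, are those with the low Dym share, and P10 replicate 2 was within the range of the earlier passages. Slc38a1 rose at P6 (log2 difference 3.68, SE 0.89, adjusted p = 0.0236), a call lost without any 1 library of P0 or P6 (highest adjusted p = 0.148). At P10 the difference was 2.05 (adjusted p = 0.151), which DESeq2 called (2.92, adjusted p = 0.00760), and 0.43 for P10 replicate 2 alone.

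Slc7a1, the main carrier of cationic amino acids such as arginine and lysine, had 471 and 366 normalised reads at P0, against 157 and 188 at P2, 185 and 196 at P4, then 92.3 and 118 at P6 and finally 96.2 and 217 at P10. All later libraries lay below P0. It fell at P6 (log2 difference -1.98, SE 0.35, adjusted p = 0.00783) and P10 (-1.52, adjusted p = 0.0219), with -1.27 (adjusted p = 0.0900) at P2 and -1.12 (adjusted p = 0.0858) at P4. Without P0 replicate 1 the calls were lost at both P6 and P10 (highest adjusted p = 0.0796 and 0.164), and at P10 also without P0 replicate 2. DESeq2 called it lower at P2 (adjusted p = 0.0144) and P4 (adjusted p = 0.0259) as well, and for P10 replicate 2 alone the difference was -0.93.

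The heteromeric exchanger LAT1, which brings in leucine and other large neutral amino acids, is formed by the products of Slc7a5 and Slc3a2. Slc7a5, the transporting subunit, had 2362 and 2031 normalised reads at P0, against 1237 and 1268 at P2, 1238 and 1310.0 at P4, then 1355 and 1025 at P6 and finally 1043 and 1713 at P10, all below P0. By limma with all libraries it passed at P6 alone (log2 difference -0.89, SE 0.25, adjusted p = 0.0353), and the values at P2, P4 and P10 were -0.81, -0.78 and -0.71. DESeq2 called it lower at P2 (adjusted p = 0.0393) and P4 (adjusted p = 0.0334) too. The P6 call was lost on omission of any single P0, P2 or P4 library, and of P6 replicate 2 (highest adjusted p = 0.197). Slc3a2, the heavy chain, ranged from 939 to 1605 and did not pass with all libraries, with differences from -0.38 at P2 to -0.14 at P4. It passed as lower at P2 with both P6 replicate 2 and P10 replicate 1 left out (limma adjusted p = 0.0102).

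The remaining neutral amino acid carriers went either way. Slc1a4, which carries alanine, serine and cysteine, had 769 and 701 normalised reads at P0, against 1167 and 1211 at P2, 1328 and 1272 at P4, then 1042 and 881 at P6 and finally 753 and 1031 at P10. It rose at P4 (log2 difference 0.82, SE 0.19, adjusted p = 0.0303), a call lost on omission of any single P0, P2 or P4 library (highest adjusted p = 0.214), with 0.69 (adjusted p = 0.0833, by DESeq2 0.0234) at P2. Slc1a5, the glutamine carrier ASCT2, ranged from 99.9 to 257, with both P2 libraries (106 and 103) below P0 (257 and 208). Its differences were -1.14 (adjusted p = 0.0605) at P2 and -0.92 (adjusted p = 0.0753) at P4. Slc6a9, the glycine carrier GLYT1, ranged from 89.6 to 246, and neither of these carriers passed by limma with all libraries. DESeq2 called Slc1a5 lower at P2 (adjusted p = 0.00775) and P4 (adjusted p = 0.0366). With both P6 replicate 2 and P10 replicate 1 left out, limma called Slc1a5 (adjusted p = 0.00120) and Slc6a9 (adjusted p = 0.0102) lower at P2.

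In a list of 12 other tested amino acid transporters, 1 fell and 1 rose at P10 (all features 17.0%). Slc7a7, a subunit of an exchanger of cationic and neutral amino acids, had 259 and 205.5 normalised reads at P0 and 92.8 to 186 later (log2 difference -1.15 at P10, adjusted p = 0.0107). Slc38a4, a further member of the SNAT family, had 9.58 and 14.4 at P0 and 44.7 and 39.8 at P10 (1.76, adjusted p = 0.0174).

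Aminoacyl-tRNA synthetases load amino acids onto their tRNAs. Of the 9 in the list, 1 fell at P2 and none passed at P4 by limma with all libraries. At P6, 1 fell and 1 rose, and at P10, 1 fell. Called shares were 11.1%, 0%, 22.2% and 11.1% at P2, P4, P6 and P10, beside 4.15%, 9.24%, 21.0% and 17.0% of all features. All differences lay between -1.05 and 0.79 on the log2 scale. At P4, 1 of the 9 was higher and 2 were lower by unadjusted p under 0.05, and edgeR and DESeq2 called none. Some of the 9 passed by limma at P4, in both directions, when P6 replicate 2 and P10 replicate 1 were both left out. Wars, for tryptophan, had 1619 and 1341 normalised reads at P0, against 927 and 1132 at P2, 993 and 1016 at P4, then 842 and 601 at P6 and finally 738 and 996 at P10. All later libraries lay below P0, and it fell at P6 (-1.05, SE 0.23, adjusted p = 0.0161) and P10 (-0.78, adjusted p = 0.0480). The P6 call was lost without either P0 library or P6 replicate 2 (highest adjusted p = 0.130) and the P10 call on omission of any single P0, P2 or P4 library, or of P10 replicate 1 (0.271), as well as with TMM scaling or a lower filter.

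Gars, for glycine, fell at P2 only, from 3052 and 2736 normalised reads at P0 to 1885 and 1624 (log2 difference -0.72, SE 0.16, adjusted p = 0.0404). Its later libraries held 2197 to 2463, and the P2 call was lost on omission of any single P0, P2 or P4 library (highest adjusted p = 0.350), and with a minimum mean of 1 or no filter. Nars, for asparagine, went the other way. It had 1118 and 1196 at P0, against 1373 and 1251 at P2, 1726 and 1617 at P4, then 2206 and 1806 at P6 and finally 2125 and 1525 at P10, all later libraries being above P0. It rose at P6 (0.79, SE 0.20, adjusted p = 0.0266), a call lost on omission of any single P0, P2 or P4 library, or of P6 replicate 1 (highest adjusted p = 0.158), and gave 0.64 (adjusted p = 0.0577, by DESeq2 0.0284) at P10.

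The other 6 synthetases did not pass by limma with all libraries, although Eprs, Aars, Mars and Yars passed as lower at P2 with both P6 replicate 2 and P10 replicate 1 left out. Sars, for serine, ranged from 1574 to 3816, with its lowest value in P6 replicate 2 and its highest in P10 replicate 2. Eprs, for glutamate and proline, ranged from 4081 to 6168, Aars (alanine) from 4352 to 7063, Mars (methionine) from 989 to 1384, Cars (cysteine) from 921 to 1351 and Yars (tyrosine) from 889 to 1504. Among 14 tested genes of the other cytosolic synthetases and their complex, 4 rose and 1 fell at P10 (all features 17.0%). Iars, for isoleucine, had 4810.1 and 4090.3 normalised reads at P0 and 2103 to 2800.2 later (log2 difference -0.87 at P10, adjusted p = 0.0186), and Kars, for lysine, had 3442 and 3556 at P0 and 5241 to 6745 at P10 (0.77, adjusted p = 0.0271). Of 17 mitochondrial synthetases none passed at P10 by limma, although 1 was higher and 1 lower by unadjusted p under 0.05, and edgeR and DESeq2 each called 1 lower.

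The comparison of P6 and P10 with P2 and P4 asked which of these genes differed between late and early adapted passages, with P0 entering only the estimate of the spread. Nupr1 was higher late (log2 difference 0.90, SE 0.16, adjusted p = 0.0230) and Trib3 lower (-1.03, SE 0.25, adjusted p = 0.0439), against 8.14% of all features called (3.14% as lower, the rest as higher). These were 2 of 37 genes, or 5.41%. Late and early values overlapped for Nupr1, with P10 replicate 2 (589) below both P4 libraries (665 and 678), but not for Trib3. The median over the 37 was -0.07, beside -0.01 over all tested features. Of the other genes, Ddit4 was at -2.45 (SE 0.67, adjusted p = 0.0566) and Slc38a1 at 2.11 (SE 0.63, adjusted p = 0.0679). Sesn2 (-0.40), Aldh18a1 (-0.39), Atf5 (-0.22) and Slc38a2 (-0.02) did not pass.

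Both late calls depended on single libraries. That of Nupr1 was lost on omission of any single P0, P2 or P4 library, or of P6 replicate 2 (highest adjusted p = 0.125), and that of Trib3 on omission of any single library from P0 to P6 (0.179). With the P0 libraries left out of the fit neither passed. With both P6 replicate 2 and P10 replicate 1 left out, 14 of the 37 genes passed, 11 higher and 3 lower, beside 3618 of all features, each late passage then being a single library.

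The duplicates of the late passages themselves differed in a common direction over these genes. At P10, 32 of the 37 were higher in replicate 2 (86.5%, beside 50.3% of all tested features), and at P6, 8 of the 37 were (21.6%, beside 44.8%). The exceptions at P10 were led by Slc38a1, at -3.22 on the log2 scale, and Nupr1, at -0.68. P6 replicate 2 was the lowest of the 10 libraries for 14 genes (37.8%, beside 25.2% of all features) and P10 replicate 1 for 8 (21.6%, beside 11.7%). P10 replicate 2 was the highest for 8 (21.6%, beside 17.7%) and P0 replicate 1 for 12 (32.4%, beside 16.5%).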

How the data were processed

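RNA was extracted with TRIzol, depleted of ribosomal RNA and made into stranded TruSeq libraries, per the labels' protocols. The deposited values are a signal, read counts per feature scaled by the authors. The submitters' processing notes name DESeq without a version. For the aligner, the counter, the build and the annotation, each was not given in the sources used here. Each column's values were whole multiples of a single value, to within 0.001 reads, so reads were recovered for edgeR and DESeq2 as alternatives. For P4 replicate 1 a read is worth close to 1, and its reads rest on the same reasoning.

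Symbols came from the table or from a RefSeq gene table of CriGri-PICRH-1.0 (16386 of 20050 gene numbers matched). No sequence or coordinate was used. With a single row per gene and an unknown counting rule, reads of near-identical copies cannot be separated.

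Differences were tested on log2(value + 1) using limma 3.58.1 (R 4.3.3) and a trended prior, for the 13521 features whose mean reached 10. A single fit held the 10 libraries and 1 mean for each passage (5 residual degrees of freedom), so P2 and P4 share the wider spread of P6 and P10. P-values were two-sided and adjusted by Benjamini-Hochberg over all features tested, within each of 5 comparisons. Fold changes are on the log2(value + 1) scale and understate those of low genes. Alternatives used other pseudocounts, filters, scalings, libraries, a replicate block, edgeR 4.0.16 and DESeq2 1.42.0. The fits were tested on data simulated with the same dispersion in every library, which does not cover the wider spread of P6 and P10.

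A gene was described in full when it passed in at least 2 of the 4 comparisons with P0 or in the late comparison, or was Atf4, Asns, Trib3, Phgdh, Psat1, Aldh18a1 or Pycr1; values of Ddit4, Shmt1, Psph, Cth, Slc38a1, Slc7a5, Slc1a4, Gars and Nars are given in full besides, chosen after they were seen. From each further list, up to 2 genes with the smallest p at P10 are named. One gene that this rule selects is not reported here. The genes and lists were chosen with earlier results of these data known.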

Additional observations from a re-analysis of the deposited data

How the results depend on the processing

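With 1 library left out in turn, 0 to 9 of the 37 genes passed at P2, 0 to 12 at P4, 0 to 17 at P6, 2 to 17 at P10 and 0 to 14 between late and early passages. Over all features these ranges were 61 to 1578, 143 to 2783, 412 to 5441, 315 to 4738 and 16 to 6391. When the spread came from the compared passages alone, 24, 21, 12, 0 and 0 genes passed at P2, P4, P6, P10 and late against early. Over all features, 3940, 5677, 2620, 49 and 99 did. Leaving out both P6 replicate 2 and P10 replicate 1 gave 26, 20, 20, 21 and 14 genes in the 5 comparisons, and 4616, 5829, 6595, 6256 and 3618 features. Without a filter on low values, 3 genes passed at P2 and 1 late against early, the latter among 624 features. DESeq2 called 9, 10 and 6 genes at P2, P4 and late against early, and 1061 features at P2 and 2536 late against early.

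Replicate numbers did not pair the samples: deviations of same-numbered libraries correlated at -0.67 (P6 with P10) to 0.23, above 0.1 in 1 of 10 pairs of passages. With a replicate block, 2, 3 and 1 genes passed at P2, P4 and late against early, and 261, 767 and 343 features. Of the 33 calls of a gene in a comparison, 8 were lost with this block. They were Atf5, Slc38a2 and Gars at P2, Chac1 and Slc1a4 at P4, Slc7a5 at P6, Wars at P10 and Trib3 late against early.

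The P10 difference of Psat1 turned to 0.53 with both libraries left out and 0.0042 by DESeq2, and lay between -0.77 and 0.53 with 1 library left out. That of Psph turned to 0.39 with both left out and lay between -0.64 and 0.39. The late difference of Slc7a5, -0.01 with all libraries, was 0.037 with totals without Dym, 0.0055 by edgeR and 0.021 by DESeq2, and 0.27 with both left out (limma adjusted p = 0.0362), with -0.19 to 0.17 when 1 library was left out. With both left out, P6 and P10 are single libraries. The causes were not tested. Scaling to totals without Dym changed the P10 split over all features from 1186 higher and 1115 lower to 827 and 1312.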
